A study of Mus musculus with 24 samples.

Results

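The comparison described here set γH2AX libraries whose deposited column names end in Xray against γH2AX libraries whose names end in NT. It used 4 of the 12 libraries in the first of 2 deposited count tables, 2 Xray-named (SIRT7-KO and WT) and 2 NT-named (SIRT7-KO and WT), from a series of 24 labelled samples. They were chosen by column name, without use of any measured value. Genotype was kept as a block, and 2414 of the 2473 windows of 1 Mb on chromosomes 1 to 19 were tested, those with a mean count of 100 or more. The H2AX and input columns with the same endings, 4 libraries each, were compared in the same way as controls.

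The study profiled H2AX and γH2AX by chromatin immunoprecipitation with sequencing in wild-type and SIRT7-KO cells and asked, by its title, about SIRT7 and the X chromosome in females. All groups used here came from female mice of the hybrid C57BL6/CAST; the labels call the cells TTF, and they were either SIRT7-KO or WT. Per the labels, every one of the 24 samples received 5 Gy of X-rays and was left for 30 minutes, so a name ending in NT conflicts with the label of its sample. The labels do not say what NT stands for, and number the samples of a group instead of naming them NT and Xray. No untreated sample is labelled, and whether the NT-named libraries came from irradiated cells cannot be told from the labels. The labels do not say whether the WT and KO cells came from 1 clone or animal each, nor how the deletion was made.

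H2AX is a variant of the core histone H2A that is spread through the genome. Its phosphorylated form, γH2AX, is made within minutes around DNA double-strand breaks by the kinases ATM, ATR and DNA-PK and covers long stretches of chromatin on either side of a break. The mark is also found without irradiation, for example at stalled replication forks, at repeats and on the X and Y chromosomes of male germ cells. SIRT7 is a deacylase of chromatin that is concentrated in the nucleolus and takes part in transcription of ribosomal RNA genes and in DNA repair.

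The 12 libraries held 170013624 to 268180310 reads, and the median bin held 55290 to 90204.5 reads, so counting error was small against the differences below. The counts were scaled to each library's own reads, so they show how a mark was distributed along the genome and not how much of it the cells carried. Sirt7 lies in a bin with 46 protein-coding genes (chromosome 11, 120000001 to 121000000, mm10), too wide to show whether the gene itself was deleted. In γH2AX that bin held 299 CPM (read counts scaled to a common library size, as edgeR gives them) in KO and 595 CPM in WT Xray-named libraries, against 274 CPM in KO and 545 CPM in WT NT-named libraries. In H2AX it held 294 CPM in KO and 582 CPM in WT Xray-named libraries, against 295 CPM in KO and 557 CPM in WT NT-named libraries. Input held 231 CPM in KO and 426 CPM in WT Xray-named libraries, against 231 CPM in KO and 436 CPM in WT NT-named libraries. In this window KO thus lay far below WT in input as well as in both marks, whatever the ending of the names. The log2 ratio of γH2AX to input differed less, 0.37 in KO and 0.48 in WT Xray-named libraries, against 0.25 in KO and 0.32 in WT NT-named libraries. Counts of DNA fragments cannot show which genes the cells expressed, so the cell type was not checked against markers.

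The γH2AX profile differed between Xray-named and NT-named libraries over most of the autosomal genome, by mostly small amounts that were closely correlated between KO and WT cells. It was higher in 853 of 2414 bins in the Xray-named libraries (35.3%) and lower in 953 (39.5%), together 1806 bins or 74.8% (edgeR's quasi-likelihood test with Benjamini-Hochberg adjustment over all bins, adjusted p under 0.05). With the autosomal total as the library size the split was 1060 higher and 720 lower. Bins with more than 2 times the input of the median bin are called repeat-rich here, and their repeat content was not measured. Leaving out the 13 bins that are repeat-rich in this sense or hold a ribosomal RNA copy, a choice made after seeing the data, gave 676 higher and 1060 lower. The log2 difference had an SD of 0.107 over bins, with 5% of bins below -0.16 and 5% above 0.16. Its extremes were -1.13 and 0.29.

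KO and WT cells, which share no library, gave differences that were closely correlated across bins. Single windows could still differ in size between the genotypes. The window with Zfhx4 and Pex2 on chromosome 3 was at -0.84 in KO and -0.55 in WT. A window of chromosome 2 (98000001 to 99000000) was at -0.15 in KO and -0.31 in WT. The difference had the same sign in KO and WT in 2249 bins (93.2%). None of the 1806 bins that passed had opposite signs, but the test all but ensures this. Disagreement between the genotypes counts as spread in it, so such bins could hardly pass. Across the 2414 bins, the KO and WT differences had a Pearson correlation of 0.961 and a Spearman correlation of 0.968. This is a description across neighbouring windows of 1 genome, which are not independent and share base composition and mappability. The SD over bins was 0.113 in KO and 0.103 in WT. Without the genotype block the count of called bins dropped to 197. Leaving out 1 H2AX or input library at a time gave 1562 to 1778 called bins. Without 1 γH2AX library the difference rests on the other genotype's pair alone, and the spread comes only from H2AX and input. Counts from such fits therefore cannot show stability.

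**Figure D1:**
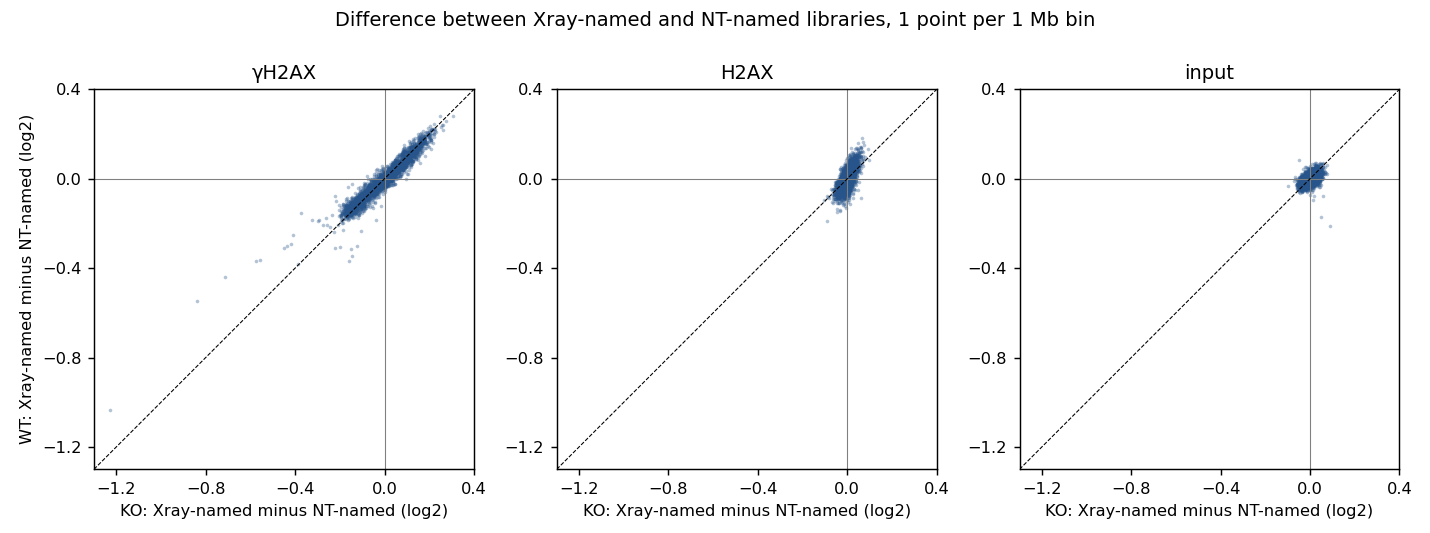
Log2 difference between the Xray-named and the NT-named library in KO cells (horizontal axis) and WT cells (vertical axis) for 2414 bins of 1 Mb, in γH2AX, H2AX and input. The dashed line marks equal values. The γH2AX points lie along the line from about -1.2 to 0.3 (r = 0.961), while H2AX and input points stay close to 0 on both axes.

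The controls differed far less. In H2AX the SD of the log2 difference over bins was 0.0327, and 0 of 2414 bins passed (0%) in the edgeR test on all 12 libraries, with 570 at an unadjusted p under 0.05. In input the SD was 0.0213 and 0 bins passed (0%), with 507 at an unadjusted p under 0.05. Those counts of 0 depended on the processing. DESeq2's size factors in edgeR gave 331 bins in H2AX, DESeq2 called 556 bins in H2AX and 91 in input, and edgeR on the libraries of 1 assay alone called 243 in H2AX and 443 in input. Between KO and WT the H2AX differences had a Pearson correlation of 0.692 and the input differences 0.504, so both controls held some shared pattern of smaller size. The SD over bins was 0.024 in KO and 0.0466 in WT for H2AX, and 0.0253 in KO and 0.0239 in WT for input.

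Set against the controls within the same fit, most of the γH2AX difference remained. Relative to H2AX, γH2AX was higher in 640 bins (26.5%) and lower in 709 (29.4%), together 55.9%. Relative to input it was higher in 776 bins (32.1%) and lower in 906 (37.5%), together 69.7%. By all 3 measures, γH2AX itself and against each control, 614 bins were higher and 655 lower, 52.6% of those tested. Without any 1 of the 4 input libraries the counts were lower, 644 to 659 relative to H2AX and 680 to 860 relative to input, and without the Xray-named WT γH2AX library the count relative to H2AX was 888.

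The difference went with the number of genes in a bin. Genes were assigned to bins by their lowest coordinate in the RefSeq annotation of the same build. Among 247 gene-rich bins (21 or more protein-coding genes), 183 were higher in Xray-named libraries and 35 lower, with a median log2 difference of 0.12 against -0.0070 over all bins. Among 287 bins with no protein-coding gene, 1 was higher and 274 were lower, with a median of -0.13. The medians were 0.12 in KO and 0.11 in WT for the gene-rich bins, and -0.14 in KO and -0.12 in WT for the bins without genes.

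In between, the medians went up with each class of gene number. They were -0.058 in bins with 1 to 4 genes, 0.020 with 5 to 9, 0.077 with 10 to 19, 0.10 with 20 to 29 and 0.12 with 30 or more. Across bins the Spearman correlation of the γH2AX difference with gene number was 0.688 in KO and 0.700 in WT. In H2AX it was 0.239 in KO and 0.383 in WT, and in input -0.370 in KO and -0.14 in WT. The control medians were much smaller: 0.013 in H2AX and -0.011 in input for gene-rich bins, and -0.029 in H2AX and 0.0080 in input for bins without genes. Gene number goes together with base composition, replication time and mappability along the mouse genome, and their part in the result was not tested.

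**Figure D2:**
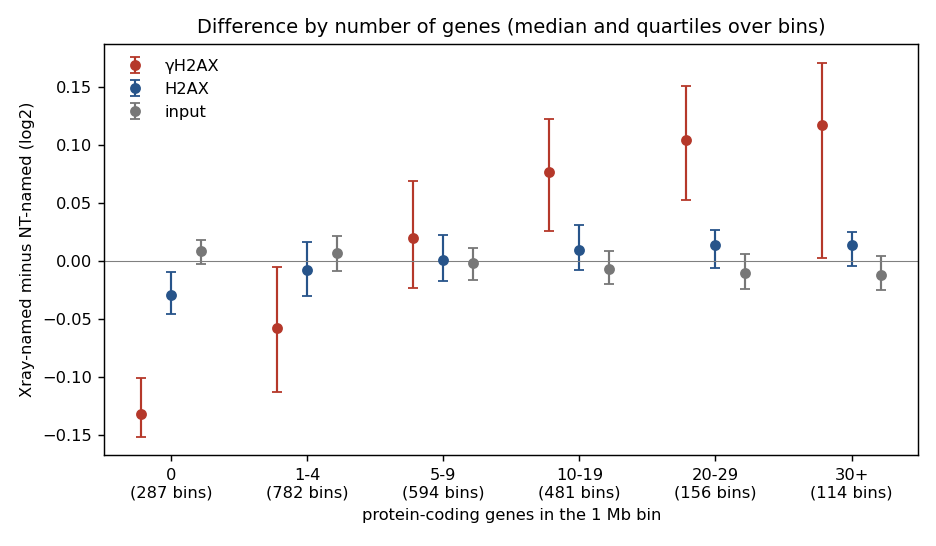
Log2 difference between Xray-named and NT-named libraries by number of protein-coding genes in the bin, for γH2AX, H2AX and input, both genotypes in 1 fit. Points are medians over bins and bars the quartiles; the γH2AX median runs from -0.13 without genes to 0.12 at 30 or more genes, while the H2AX and input medians stay between -0.029 and 0.013.

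The levels show the same widening. The log2 ratio of γH2AX to input CPM had a median over gene-rich bins of 0.22 in KO and 0.27 in WT Xray-named libraries, against 0.080 in KO and 0.13 in WT NT-named libraries. Over bins without genes it was -0.27 in KO and -0.29 in WT Xray-named libraries, against -0.10 in KO and -0.16 in WT NT-named libraries. Gene-rich windows thus stood above gene-free windows under both names, and further above them under the Xray name. The SD of that ratio over all bins was 0.22 in KO and 0.231 in WT Xray-named libraries, against 0.177 in KO and 0.172 in WT NT-named libraries.

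The 10 bins with the largest rise held 13 to 54 protein-coding genes each, against a median of 5 over all tested bins. The first lies on chromosome 7, 19000001 to 20000000, and holds Fosb (an immediate early transcription factor gene), Ercc1 and Ercc2 (nucleotide excision repair) and Apoe (a lipid carrier). It had 445 CPM in KO and 464 CPM in WT Xray-named libraries, against 361 CPM in KO and 382 CPM in WT NT-named libraries. Both Xray-named values lay above both NT-named values, and γH2AX rose by 0.29 (log2; SE 0.0091, edgeR adjusted p = 0.000169). In H2AX the same bin had 381 CPM in KO and 399 CPM in WT Xray-named libraries, against 385 CPM in KO and 393 CPM in WT NT-named libraries, with no separation by name. In input it had 315 CPM in KO and 311 CPM in WT Xray-named libraries, against 319 CPM in KO and 319 CPM in WT NT-named libraries, slightly lower under the Xray name.

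The bin on chromosome 17, 56000001 to 57000000, holds Uhrf1 (maintenance of DNA methylation), Chaf1a (chromatin assembly) and Kdm4b (histone demethylase). It had 585 CPM in KO and 659 CPM in WT Xray-named libraries, against 483 CPM in KO and 551 CPM in WT NT-named libraries, a rise of 0.27 (SE 0.0353, edgeR adjusted p = 0.00296). The bin with Jund, Upf1 (nonsense-mediated decay) and Gdf15 (a stress-induced secreted factor) on chromosome 8, 70000001 to 71000000, had 528 CPM in KO and 467 CPM in WT Xray-named libraries, against 445 CPM in KO and 384 CPM in WT NT-named libraries (0.26 on the log2 scale). In each of these 3 windows the Xray-named library lay above the NT-named library of its own genotype, as the choice of bins required.

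The bin on chromosome 7, 16000001 to 17000000, holds Bbc3, which encodes the apoptosis protein PUMA and is a target of p53. It had 417 CPM in KO and 431 CPM in WT Xray-named libraries, against 349 CPM in KO and 365 CPM in WT NT-named libraries (0.25). Next were bins with Stk11, Dot1l (the H3K79 methyltransferase) and Gadd45b on chromosome 10 (0.25), Yy1 and Setd3 on chromosome 12 (0.24), and Mad1l1 (spindle checkpoint) and Lfng on chromosome 5 (0.24). The last 3 held Spen and Casp9 on chromosome 4 (0.23), Crebbp (a histone acetyltransferase) on chromosome 16 (0.23), and Dnm1 and Cdk9 on chromosome 2 (0.22). All 10 also passed relative to H2AX and relative to input. Without any 1 of the 4 γH2AX libraries the Dot1l bin (edgeR adjusted p = 0.0697 to 0.135) and the Cdk9 bin (0.137 to 0.185) no longer passed.

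In these 10 bins the log2 ratio of γH2AX to input was 0.333 to 0.517 in KO and 0.376 to 0.596 in WT Xray-named libraries, against 0.0718 to 0.222 in KO and 0.124 to 0.316 in WT NT-named libraries. The bins were chosen for this difference, so the gap between names describes them and supports nothing further.

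**Figure D3:**
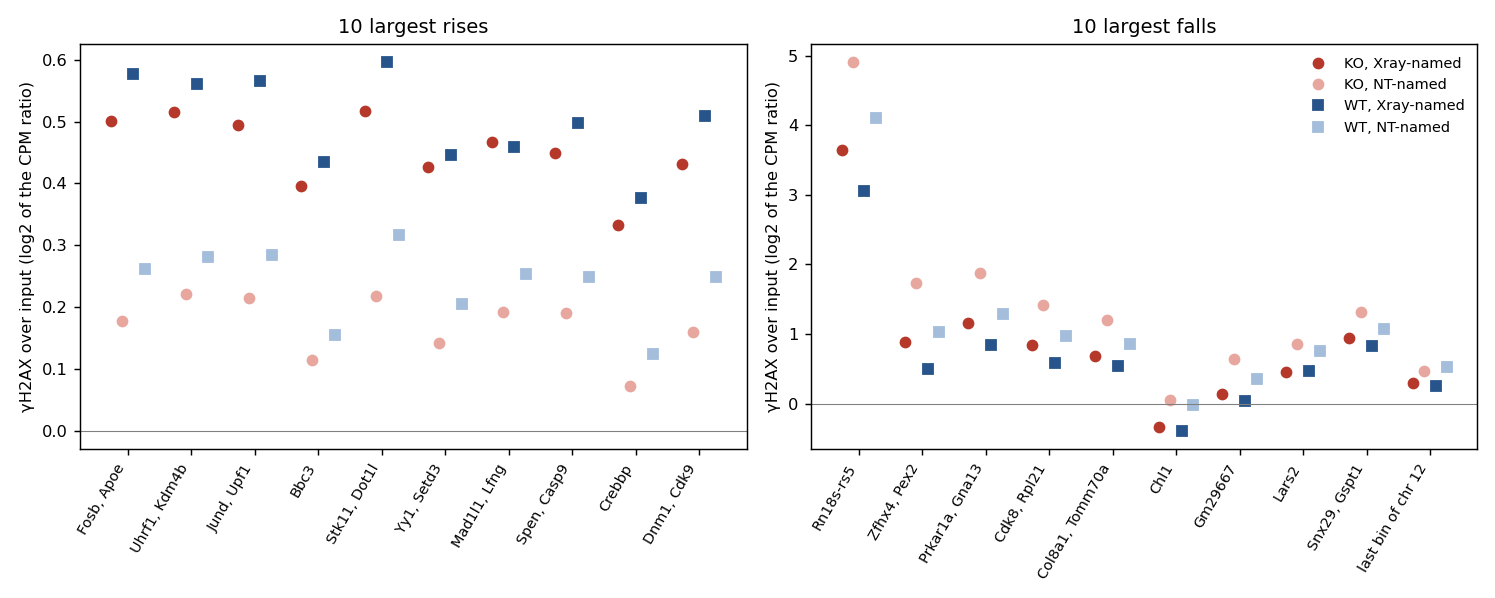
Log2 ratio of γH2AX to input CPM in the 10 bins with the largest rise (left) and the 10 with the largest fall (right), 1 point per library, with Xray-named points darker and left of the NT-named points of their genotype. On the left every Xray-named point (0.333 to 0.596) lies above every NT-named point (0.0718 to 0.316); on the right each Xray-named point lies below the NT-named point of its genotype, up to 3.65 against 4.90 in KO for the ribosomal RNA bin.

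Genes of the DNA damage response lay mostly in bins that rose: 15 of 19 bins were higher in Xray-named libraries and 1 was lower, with a median log2 difference of 0.098. These bins held a median of 17 protein-coding genes, against 5 over all tested bins. In the class of 10 to 19 genes 67.8% of bins were higher and in that of 20 to 29 genes 78.2% were, near the 78.9% of this list, against 35.3% higher and 39.5% lower over all bins. A bin holds many genes, so a value belongs to the window and not to the gene named. Medians also moved with the scaling: that over all bins was -0.034 without the Xray-named KO γH2AX library and 0.020 with the autosomal total as the library size, against -0.0070 in the fit as reported.

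The window of H2ax itself, the gene of the histone variant (chromosome 9, 44000001 to 45000000), had 395 CPM in KO and 442 CPM in WT Xray-named libraries, against 348 CPM in KO and 388 CPM in WT NT-named libraries. The rise was 0.18 (SE 0.0033, edgeR adjusted p = 0.000154). Among the kinases, the Chek2 bin had 418 CPM in KO and 502 CPM in WT Xray-named libraries, against 377 CPM in KO and 441 CPM in WT NT-named libraries (0.17), and the Atm (0.045) and Atr (0.058) bins rose less. The bins of Prkdc, the catalytic subunit of DNA-PK (0.023, edgeR adjusted p = 0.0508), and of Chek1 (-0.029, 0.163) did not pass.

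Of the break sensors, the windows of Mre11a (0.088) and Rad50 (0.086) rose while that of Nbn, their partner in the MRN complex, fell (-0.061), and those of the Ku subunits Xrcc5 (0.098) and Xrcc6 (0.16) rose. The windows of the mediators Mdc1 (0.13), Rnf8 (0.14), Rnf168 (0.10) and Trp53bp1 (0.093) rose, as did those of Parp1 (0.12) and of the recombination gene Brca1 (0.12). The Lig4 window, for the ligase of end joining, did not pass (-0.042, edgeR adjusted p = 0.0611), with 350 CPM in KO and 306 CPM in WT Xray-named libraries, against 365 CPM in KO and 311 CPM in WT NT-named libraries. The Nbn window holds 5 protein-coding genes and the Lig4 window 3, fewer than the list's median.

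Of 8 bins with genes that modify H2AX, 6 were higher (75%, against 35.3% of all bins and 78.2% of bins with 20 to 29 genes) and 0 lower. Their median was 0.11, and 0.065 without the Xray-named KO γH2AX library, with a median of 25 genes per bin. The windows of Baz1b, the tyrosine kinase WSTF that acts on H2AX (0.15), and of Eya3, a tyrosine phosphatase of H2AX (0.17), had the smallest p values. Those of Kat5, the acetyltransferase TIP60 (0.086, edgeR adjusted p = 0.0579), and Eya1 (-0.0083, 0.739) did not pass. The windows of the phosphatase genes Ppp4c (0.14), Ppp2ca (0.072) and Ppm1d (0.045) rose.

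Targets of p53 and immediate early genes, whose transcription reacts to damage or growth signals, were described as lists too, without a test of the list. Among 20 bins with p53 targets, 11 were higher and 4 lower (median 0.082, and 0.055 without the Xray-named KO γH2AX library). That is 55% higher, against 35.3% of all bins and 67.8% of bins with 10 to 19 genes, where the list's median of 13 lies. Bax, a pore-forming apoptosis gene, lay in a bin at 0.21 and the Cdkn1a bin, for the cell cycle inhibitor p21, stood at 0.14. The Plk2 (-0.092), Pmaip1 (-0.039), Rrm2b (-0.031) and Ccng1 (-0.029) windows were lower, with 3 to 6 genes each, and the Mdm2 window did not pass (0.069, edgeR adjusted p = 0.0622). Of 10 bins with immediate early genes, 8 were higher and 1, that of Myc, was lower (median 0.13, 20.5 genes per bin). The 80% that were higher compare with 35.3% of all bins and 78.2% of bins with 20 to 29 genes. The Fos window had 506 CPM in KO and 516 CPM in WT Xray-named libraries, against 458 CPM in KO and 470 CPM in WT NT-named libraries, a rise of 0.14 (edgeR adjusted p = 0.000161). The Myc window holds 1 protein-coding gene and stood at -0.045.

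Windows of genes that mark other cell types were mostly higher too. Of 14 bins with such genes, 10 were higher and 2 lower, with a median of 0.11 (0.069 without the Xray-named KO γH2AX library) and 30 genes per bin. The 71.4% that were higher compare with 35.3% of all bins and 65.8% of bins with 30 or more genes. They included Myod1 (skeletal muscle, 0.20), Myh6 (heart muscle, 0.17), Gfap (astrocytes, 0.13) and Cd3e (T cells), which shares the H2ax window. The Hbb-bs window of adult globin genes fell (-0.11) and lies among olfactory receptor genes. Of 14 bins with genes of fibroblasts, 7 were higher (50%, against 35.3% of all bins and 40.9% of bins with 5 to 9 genes) and 1 lower. Their median was 0.044 at 8 genes per bin, 0.018 without the Xray-named KO γH2AX library and 0.071 with the autosomal total as the library size. Col1a1 (0.10), Pdgfrb (0.096) and Fn1 (0.057) lay in bins that rose, the Col1a2 bin fell (-0.027), and the Vim bin (0.030, edgeR adjusted p = 0.481) and the Col3a1 bin (-0.029, 0.136) did not pass.

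Gene-rich windows split by gene family. Among the 247, 57 held 3 or more olfactory or vomeronasal receptor genes, large families expressed in sensory neurons of the nose. Of these 57, 18 were higher (31.6%) and 26 lower (45.6%), with a median of -0.024. Those shares lay near the 35.3% higher and 39.5% lower over all bins. Of the other 190, 165 were higher (86.8%) and 9 lower (4.74%), with a median of 0.13. The 9 exceptions were looked up after their values were seen. The lowest was a high-input window of chromosome 9 with Cdon and St3gal4 (-0.17), with 28.3 times the input of the median bin. The others included windows with the keratin-associated protein genes of chromosome 16 (-0.16 and -0.11), the proline-rich salivary protein genes of chromosome 6 (-0.16), the Ugt2 and casein genes of chromosome 5 (-0.14), the beta-defensin genes of chromosome 8 (-0.12) and the prolactin family of chromosome 13 (-0.092). The window with the keratin-associated genes from 88000001 to 89000000 had 340 CPM in KO and 290 CPM in WT Xray-named libraries, against 379 CPM in KO and 325 CPM in WT NT-named libraries.

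Other families and clusters are set against 35.3% higher and 39.5% lower over all bins. Over bins with at least 3 genes of the family, olfactory receptors gave 20 higher and 28 lower of 61 (32.8% and 45.9%), close to those shares. Their median was -0.016, 0.011 with the autosomal total as the library size, and between -0.041 and -0.029 without 1 of 3 γH2AX libraries (either WT library or the Xray-named KO library). Vomeronasal receptors gave 4 higher and 20 lower of 34 (11.8% and 58.8%; median -0.071, and -0.044 with the autosomal total).

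The 4 Hox clusters, arrays of developmental transcription factors, gave 2 higher and 0 lower, with a median of 0.065 and of 0.023 without the Xray-named KO γH2AX library. The 4 clusters of histone genes gave 1 higher and 2 lower (-0.045, and -0.018 with the autosomal total). Imprinted genes gave 6 higher and 2 lower of 13 bins (46.2% and 15.4%; median 0.015, with 10 genes per bin). That median was -0.011 without the Xray-named KO γH2AX library, 0.042 with the autosomal total and -0.00054 without the repeat-rich bins, while the Igf2r and Airn window rose by 0.17.

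Very long genes of the kind found at common fragile sites, where replication stress leads to breaks, lay mostly in windows that fell. Of 31 bins with the lowest coordinate of such a gene, 19 were lower (61.3%) and 4 higher (12.9%), with a median of 1 protein-coding gene per bin. Bins with 1 to 4 genes gave nearly the same shares, 59.3% lower and 11% higher, against 39.5% lower and 35.3% higher over all bins. The list's median was -0.072, and -0.045 with the autosomal total as the library size. The Csmd1 window, for a large membrane protein, had 435 CPM in KO and 367 CPM in WT Xray-named libraries, against 534 CPM in KO and 418 CPM in WT NT-named libraries. It fell by 0.24 (SE 0.0287, edgeR adjusted p = 0.00223). The windows of Csmd3 (-0.16), Lrp1b (-0.15), Naaladl2 (-0.15) and Cntnap2 (-0.15) were lower as well. The windows of Fhit (-0.036, edgeR adjusted p = 0.066) and Wwox (0.027, 0.277), which span well known fragile sites, did not pass. Auts2 (0.055), Cdh13 (0.080) and Rbfox1 (0.066) lay in bins that rose.

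Bins that moved the same way lay side by side. Neighbouring bins had a correlation of 0.463 in the γH2AX difference over 2395 pairs, 0.588 in H2AX and 0.230 in input. There were 43 runs of 5 or more adjacent bins that were higher, with 292 bins in all, and 55 runs of lower bins with 380. The longest lower run was 12 bins on chromosome 13 (78000001 to 90000000) with 17 protein-coding genes in all and a mean difference of -0.13, -0.13 in KO and -0.12 in WT. H2AX averaged -0.032 and input 0.0037 over the same bins. The longest higher runs had 11 bins each, and the one with the largest mean lay on chromosome 2 (25000001 to 36000000) with 241 genes and a mean of 0.17. H2AX averaged 0.028 and input -0.019 there. The longest runs were thus gene-dense where γH2AX was higher and gene-sparse where it was lower.

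Most of the 10 largest falls were windows in which γH2AX stood above input in the NT-named libraries. The log2 ratio to input was 0.35 or more in both NT-named libraries in 9 of them, and near 0 at Chl1 (0.058 in KO and -0.020 in WT). The largest was the bin on chromosome 17, 39000001 to 40000000, which holds Rn18s-rs5, a copy of 18S ribosomal RNA sequence, and 6 Esp genes for exocrine-gland peptides. It had 7770 CPM in KO and 5150 CPM in WT Xray-named libraries, against 18200 CPM in KO and 10500 CPM in WT NT-named libraries. Both Xray-named values lay below both NT-named values, and γH2AX fell by 1.13 (log2; SE 0.0486, edgeR adjusted p = 0.000307). In H2AX the bin had 466 CPM in KO and 524 CPM in WT Xray-named libraries, against 469 CPM in KO and 536 CPM in WT NT-named libraries. Input had 619 CPM in KO and in WT of the Xray-named libraries, against 609 CPM in KO and 612 CPM in WT NT-named libraries.

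The window with Zfhx4 and Pex2 (chromosome 3, 5000001 to 6000000) had 567 CPM in KO and 511 CPM in WT Xray-named libraries, against 1020 CPM in KO and 746 CPM in WT NT-named libraries (-0.69). That with Prkar1a and Gna13 (chromosome 11, 109000001 to 110000000) had 887 CPM in KO and 754 CPM in WT Xray-named libraries, against 1450 CPM in KO and 1020 CPM in WT NT-named libraries (-0.58). The groups did not overlap in either window. All 10 windows with the largest falls were chosen for this difference, so the gap between names describes them and supports nothing further. Further falls were those of the windows with Cdk8 and Rpl21 on chromosome 5 (-0.47), Col8a1 and Tomm70a on chromosome 16 (-0.46), Chl1 on chromosome 6 (-0.39), Gm29667 on chromosome 1 (-0.38), Lars2 on chromosome 9 (-0.37) and Snx29 and Gspt1 on chromosome 16 (-0.33), and of the short last bin of chromosome 12 (-0.27). Lars2 encodes the mitochondrial leucyl-tRNA synthetase. All 10 also passed relative to H2AX and to input, and the Snx29 bin did not pass without the Xray-named KO γH2AX library (edgeR adjusted p = 0.0942).

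Relative to H2AX, the γH2AX difference was -0.61 at Prkar1a and Gna13 and -1.11 at Rn18s-rs5 on the log2 scale. Relative to input it was -0.58 at Prkar1a and Gna13 and -1.15 at Rn18s-rs5. The controls took little from either difference. At Chl1, a gene of a neural cell adhesion protein, γH2AX had 1150 CPM in KO and 1150 CPM in WT Xray-named libraries, against 1510 CPM in KO and 1490 CPM in WT NT-named libraries. Relative to H2AX it fell by 0.29 there, less than γH2AX itself. The counts include reads of repeated sequence in a way that is not given in the sources used here, and which sequence within a window carried the fall cannot be seen at 1 Mb.

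Windows with the highest γH2AX in 1 genotype mostly had a negative difference in the other. Of the 20 bins with the highest ratio of γH2AX to input in the NT-named WT library, 18 were below 0 in the KO difference, with a median of -0.26, and 51.5% of all bins were below 0. Of the 20 highest in the NT-named KO library, 19 were below 0 in the WT difference, with a median of -0.25, and 52.4% of all bins were. The Xray-named libraries thus had lower values in the few strongest windows and a steeper slope from gene-poor to gene-rich windows.

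Windows of other repeats and of chromosome ends were examined as well. The Rn5s window on chromosome 8, with 5S ribosomal RNA sequence, rose by 0.14. It holds 27 protein-coding genes, and 78.2% of bins with 20 to 29 genes were higher. Its log2 ratio of γH2AX to input was 0.22 in KO and 0.33 in WT NT-named libraries. At Rn18s-rs5 that ratio was 4.90 in KO and 4.11 in WT NT-named libraries. Of the first 5 tested bins of each chromosome, next to the centromere in the mouse, 25 were higher and 46 lower of 95 (26.3% and 48.4%, against 35.3% and 39.5% over all bins). Their median was -0.033, -0.057 without the Xray-named KO γH2AX library and -0.0062 with the autosomal total as the library size. Of the last 5, 24 were higher and 39 lower of 95 (25.3% and 41.1%), with a median of -0.021, of -0.050 without that library and of 0.0060 with that other scaling. Chromosomes known to carry ribosomal DNA arrays gave 132 higher and 211 lower of 462 bins (28.6% and 45.7%), with a median of -0.022, of -0.050 without that library and of 0.0046 with that other scaling.

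Summed per chromosome and scaled to the autosomal total, 16 of 19 chromosomes passed in γH2AX (84.2%), 12 higher and 4 lower in the Xray-named libraries. In H2AX and in input 0 of 19 passed in edgeR (0%), with 4 in H2AX and 0 in input at an unadjusted p under 0.05. Chromosome 7 gained most, with 4.328% of autosomal γH2AX reads in KO and 4.633% in WT Xray-named libraries, against 4.153% in KO and 4.421% in WT NT-named libraries (0.064 on the log2 scale, edgeR adjusted p = 0.000697). Chromosome 17 lost most, with 4.545% in KO and 4.869% in WT Xray-named libraries, against 5.421% in KO and 5.248% in WT NT-named libraries (-0.18, edgeR adjusted p = 0.0105). Chromosomes 2, 9 and 14 were the other ones that fell. Without either WT γH2AX library, or any 1 input library, 10 chromosomes passed.

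These sums rested on few windows. The bin with Rn18s-rs5 alone held 19.9% of the γH2AX reads of chromosome 17. One bin of chromosome 2 (98000001 to 99000000), with 189 times the input of the median bin, held 45.1% of that chromosome's γH2AX reads. Without the 13 bins of high input or with a ribosomal RNA copy, a choice made after seeing the data, 8 chromosomes were higher and 7 lower. Chromosomes 2 (0.017), 9 (0.019) and 17 (0.016) were then higher, and chromosomes 3 (-0.045), 16 (-0.035) and 18 (-0.032) lowest. Relative to H2AX, 10 of 19 chromosomes passed with all bins (52.6%), and relative to input 11 (57.9%), all of them higher.

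**Figure D4:**
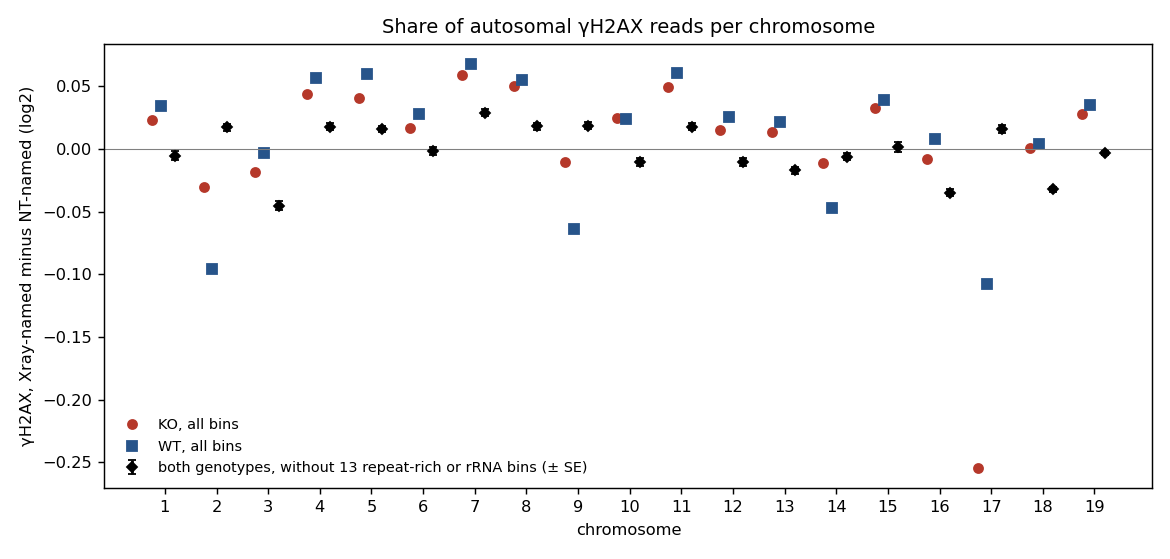
Log2 difference in the share of autosomal γH2AX reads per chromosome between Xray-named and NT-named libraries, for KO (circles) and WT (squares) with all bins, and for both genotypes together without the 13 repeat-rich or ribosomal RNA bins (diamonds, with SE). Chromosome 17 lies at -0.25 in KO and -0.11 in WT with all bins and at 0.016 without them.

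The X chromosome, outside the tested bins, differed little. Its γH2AX reads were 5.486% of autosomal reads in KO and 4.812% in WT Xray-named libraries, against 5.495% in KO and 4.741% in WT NT-named libraries, a log2 difference of -0.0026 in KO and 0.021 in WT.

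The second deposited table bears on what the names stand for. Its WT columns carry the numbers of the labelled WT samples, and replicate 2, labelled as irradiated, held the same counts as the WT library named NT in each of the 2414 bins, in γH2AX, H2AX and input alike. WT replicate 1 was identical to neither WT library of the first table in any bin (0 of 2414). The library named NT in 1 table thus stands in the other for a sample labelled as irradiated.

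Within the second table, WT replicate 1 differed from replicate 2 along the same lines. In γH2AX the log2 difference of replicate 1 minus replicate 2 had a median of 0.17 in gene-rich bins and -0.36 in bins without genes, and an SD of 0.218 over bins. Its Pearson correlation with the KO difference of Xray-named minus NT-named γH2AX libraries, which shares no library with it, was 0.750 across 2414 bins.

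Replicate 2 is itself one of the NT-named libraries, so values of named windows are set side by side only. In the window with Rn18s-rs5 γH2AX had 9180 CPM in replicate 1 and 10600 CPM in replicate 2 (-0.21), where the difference between names in the first table was -1.13. At Prkar1a and Gna13 it had 1010 CPM in replicate 1 and 1030 CPM in replicate 2 (-0.039). The Chl1 window had 705 CPM in replicate 1 and 1510 CPM in replicate 2 in γH2AX (-1.10), and 721 CPM in replicate 1 and 1310 CPM in replicate 2 in H2AX (-0.87).

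In this table H2AX differed as much as γH2AX. Replicate 1 minus replicate 2 in H2AX had medians of 0.20 in gene-rich bins and -0.34 in bins without genes, an SD of 0.226 and a correlation of 0.727 with the same KO difference. In input the SD was 0.0445, the medians 0.018 in gene-rich bins and -0.065 in bins without genes, and the correlation 0.554. In the Fosb window H2AX had 501 CPM in replicate 1 and 397 CPM in replicate 2, and γH2AX had 465 CPM in replicate 1 and 385 CPM in replicate 2. A difference of this shape was thus present between 2 samples labelled with the same treatment, in the total H2AX as well. In the first table the H2AX libraries differed by an SD of only 0.0327. The part of treatment, chromatin preparation or immunoprecipitation in either difference was not tested, and with 1 library per name and genotype they cannot be told apart.

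**Figure D5:**
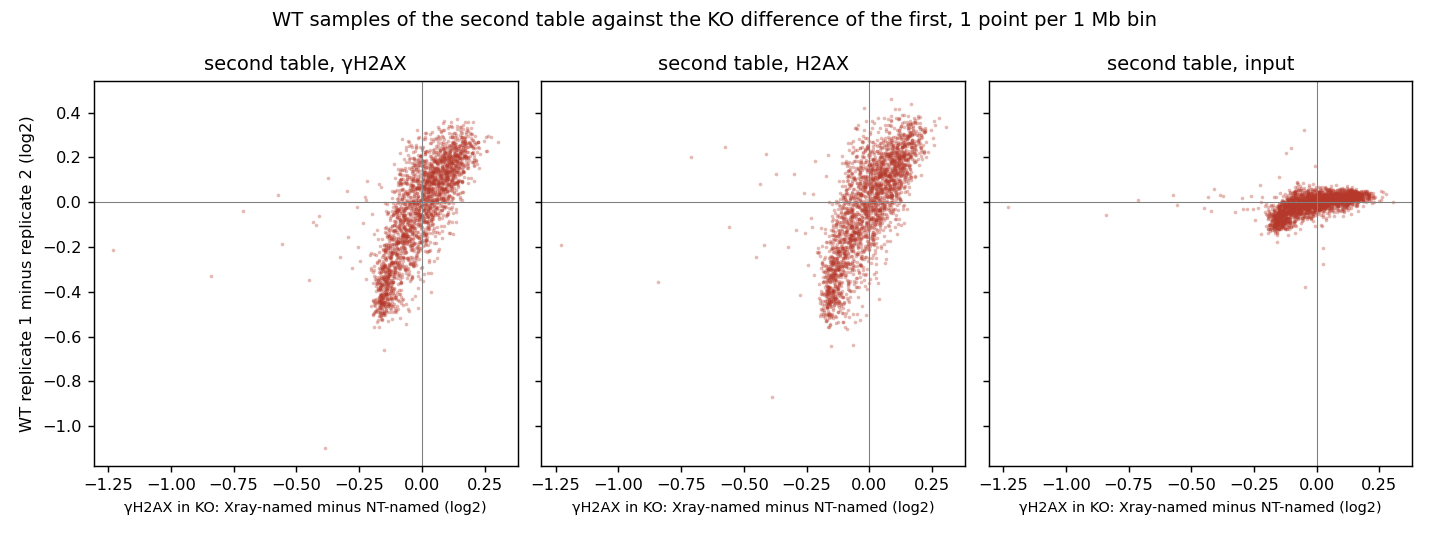
Log2 difference of WT replicate 1 minus replicate 2 in the second table (vertical axis) against the KO γH2AX difference of Xray-named minus NT-named libraries in the first (horizontal axis), for 2414 bins, with γH2AX, H2AX and input of the second table in 1 panel each. The points climb along a band in γH2AX (r = 0.750) and as steeply in H2AX (r = 0.727), and lie nearly flat in input, where the SD on the vertical axis is 0.0445.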

How the data were processed

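The deposited tables hold raw counts of reads per 1 Mb bin of mm10, made by the authors without scaling. The submitters' processing notes name, among other tools and without their settings, Bowtie2 2.2.9 and deepTools 2.4.2; handling of duplicates and of repeats is not given in the sources used here. Of 144 value columns 18 were used and 126 were not, among them the counts per parental genome. Columns were matched to groups by name.

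Counts of the 12 libraries of the first table were fitted with edgeR 4.0.16 (R 4.3.3): TMM scaling, a coefficient per assay and genotype and an Xray-named minus NT-named coefficient per assay, quasi-likelihood F test, two-sided, Benjamini-Hochberg over 2414 bins, threshold 0.05. This left 3 residual degrees of freedom, all assays sharing 1 estimate of spread. Nothing says that the libraries came from separate cultures, so p-values measure only the spread between them, which may be technical. An exact permutation test of 2 against 2 that ignores the genotype block cannot go below 0.333. Within genotypes fewer arrangements exist, so that limit is higher. Alternatives were DESeq2 1.42.0, its size factors, the autosomal total as library size, no count minimum, each assay alone and no genotype block. In others each library was left out, or the bins of chromosome ends, of ribosomal RNA copies, or of these copies and high input. The test was also run on counts simulated from the fitted model with 1 common estimate of spread, and the outcome is not given here. The simulation held no pattern shared by KO and WT in the controls, so it cannot show that the test holds for these data.

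The bins, gene lists and tests were chosen with earlier results of these data known. Named were the 10 largest rises and falls with the same sign in KO and WT, the bins of the lists, and the Sirt7 bin. Gene positions came from RefSeq (GRCm38.p6). The tables were not joined in a fit. Some genes of the lists are not reported here.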

Additional observations from a re-analysis of the deposited data

Results flagged for a closer look

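The WT replicates of the second table differed in H2AX with an SD over bins of 0.2257, and in γH2AX with 0.2178, against 0.0445 in input, in columns that the main comparison does not use. Over all bins, the Xray-named minus NT-named difference had the same sign in both genotypes in 2249 of 2414. Signs were also looked up in the bins of largest rise or fall, the Sirt7 bin and a few bins of each list. The chromosome sums and the X chromosome were looked up too. In 3 of these places the signs were opposite. With 1 library per name and genotype, these differences of differences were not tested. The bin with Prrx1 (chromosome 1, 163000001 to 164000000) was at 0.01297 in KO and -0.02568 in WT, 0.03865 apart. Chromosome 16 was at -0.0080 in KO and 0.0077 in WT, -0.0157 apart. The X chromosome was at -0.0026 in KO and 0.021 in WT, -0.02408 apart.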

How the results depend on the processing

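The fit pairs the libraries of a genotype through its block, which is not a pairing by replicate. By replicate number, no paired analysis was possible because the columns of the first table carry no replicate numbers. Under the other settings the count of γH2AX bins stayed within 1.5 times of 1806, except without the genotype block, which gave 197 bins in γH2AX, 0 relative to H2AX, 0 relative to input and 1 chromosome. In H2AX, where 0 bins passed, DESeq2 size factors gave 331, DESeq2 556 and its own assay alone 243; in input DESeq2 gave 91 and its own assay alone 443. The γH2AX libraries alone gave 8 chromosomes. Leaving out 1 library at a time gave 1271 to 1778 bins in γH2AX, 644 to 1415 relative to H2AX, 680 to 1664 relative to input, 0 in H2AX, 0 in input and 10 to 16 chromosomes; the 10 came without either WT γH2AX library or any input library. Without the Xray-named KO γH2AX library the split was 624 higher and 1107 lower. Medians that changed sign were those of the last 5 bins (0.005993), olfactory receptors (0.01147) and ribosomal DNA chromosomes (0.004557) with the autosomal total, and of imprinted genes without the Xray-named KO γH2AX library (-0.01134, lowest of -0.01134 to 0.01611 over libraries left out) and without repeat-rich bins (-0.0005441). Of the values of named bins under all settings, 908 stayed on the same side of the threshold, 47 no longer passed and 38 newly passed. A change of sign in a bin that passed in neither fit was counted among the 908. The planned fits on the counts of each parental genome were not run. The cause of these changes was not tested. Depth was no limit at this bin size; 2 libraries per name and 1 Mb windows were.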
